A study of Mus musculus with 8 samples.

Results

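NADPH oxidases are membrane enzymes that pass electrons from NADPH to oxygen and so make superoxide or hydrogen peroxide. Their genes were followed in the retinal pigment epithelium (RPE)/choroid of ageing mice. The set of 9 genes was taken as a list: the phagocyte oxidase genes Cybb, Cyba, Ncf1 and Ncf4 with the proton channel gene Hvcn1, and Nox1, Nox4, Noxa1 and Noxo1 of the other oxidases. Every probe set of the array that is annotated to one of these genes alone was used. This gave 12 probe sets of 45037 tested, for 7 genes of 18193 measured. Nox1 and Noxa1 had no such probe set and were not analysed here.

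The old group was made up of 4 arrays from male C57BL/6 mice aged 26 months, and the young group of 4 arrays from male C57BL/6 mice aged 4 months. The RNA of each array came from 4 RPE/choroids of 2 animals, put together before hybridization, so the p-values measure the spread between such pools. The labels name no treatment and no engineered allele. Affymetrix arrays gave an intensity for each probe set, which is a relative brightness and has no unit. The level of one probe set cannot be set against that of another, because probes differ in how brightly they bind. Array medians ran from 129 to 135. Within an age, the correlation of 2 arrays over all probe sets was 0.9915 or more. The tissue also held other cells. The summed intensity of 4 rod photoreceptor genes ran from 5539 to 14573 in old arrays and from 7146 to 15075 in young arrays. That of 9 neutrophil genes was 18155 in old replicate 2, against 1799 to 3053 in the other old arrays and 1456 to 1766 in young arrays. In old replicate 2, S100a8 and S100a9 alone were at 7828 and 7062. Such a sum follows the brightest probe sets of its list, so it can hide changes of dimmer ones and does not count cells. The RPE gene Rpe65, the isomerase of the visual cycle, was at 10807 to 11414 in old arrays and at 10929 to 12118 in young arrays.

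In phagocytes, the membrane part of the oxidase is a pair of proteins, gp91phox from Cybb, which carries the electrons, and p22phox from Cyba, which stabilizes it. The cytosolic proteins p47phox from Ncf1 and p40phox from Ncf4 join this pair, with a further activator subunit and a Rac GTPase, when the cell is stimulated, and the enzyme then makes superoxide for killing microbes and for signaling. Hvcn1 lets protons follow the electrons across the membrane, which keeps the enzyme from stalling. Nox4 works with p22phox alone, is active without stimulation, makes mostly hydrogen peroxide, and is known from kidney, vessel wall and fibroblasts. Noxo1 is the organizer that stands in for p47phox beside Nox1, an oxidase best known from colon epithelium.

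Of the 7 measured genes, 6 rose in the old RPE/choroid and 0 fell at an adjusted p under 0.05 (limma, Benjamini-Hochberg over all 45037 probe sets), each gene being read by its brightest probe set, the one whose log2 mean over the 8 arrays is highest. Noxo1 did not pass. Of all genes read in the same way, 11.8% rose and 9.56% fell. The 5 phagocyte oxidase genes rose with log2 differences (old minus young) of 0.98 to 1.50 and a median of 1.31, and Nox4 rose by 1.76. The median over all genes was -0.02. Past the stricter limits of the study, a fold over 2 with an adjusted p under 0.01, were Cybb, Cyba, Ncf1, Ncf4 and Nox4, 5 of the 7 genes, where 1.13% of all genes were. Hvcn1 lay just under the fold limit at 1.97-fold. Over single probe sets, 11 of 12 rose, and in the same 11 every old array lay above every young array. Of all probe sets, 9.22% rose (4154, against 3939 that fell; 4819 against 3023 once each array was centred on its median) and 12.3% had every old array above every young array. The study chose several of these genes from the same arrays, so their direction is not independent evidence. In bulk tissue, more cells that carry a transcript and more transcript per cell cannot be told apart.

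**Figure D1:**
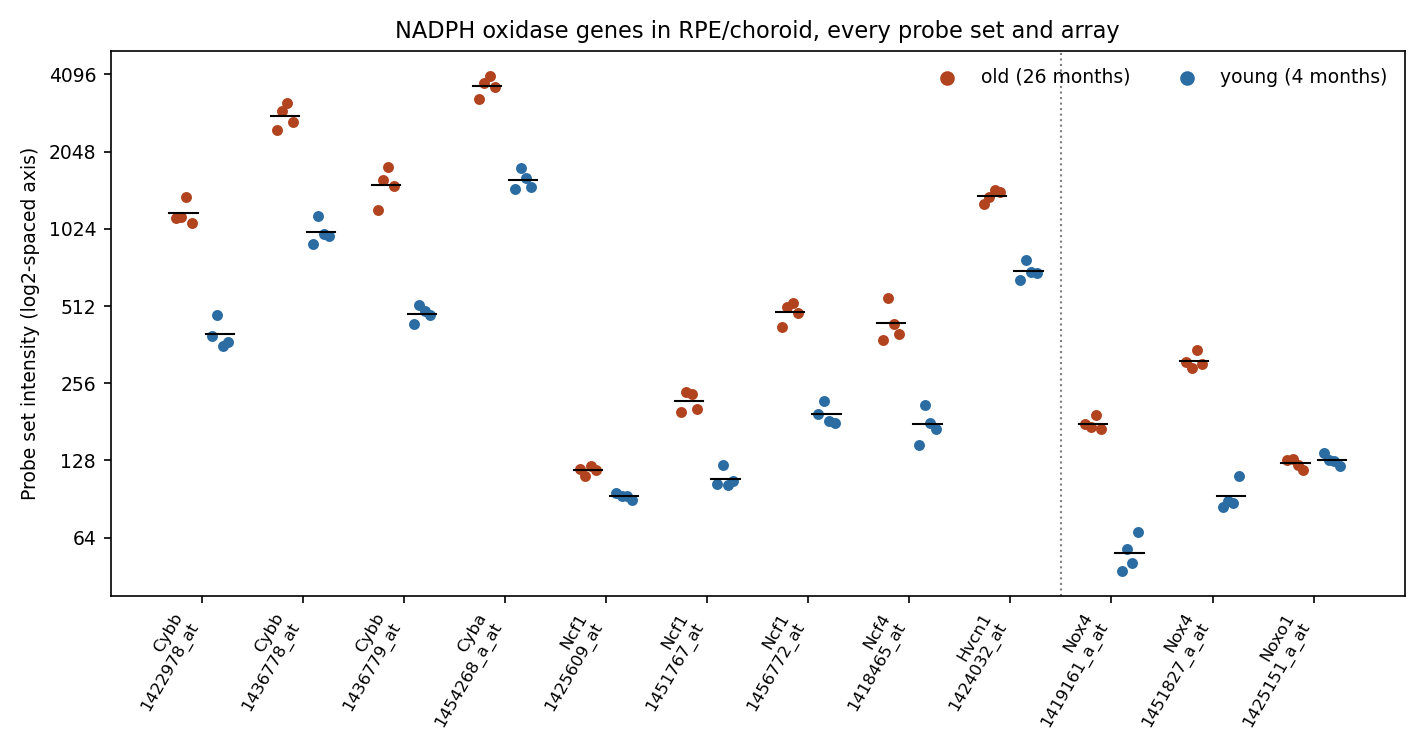
Intensity of the 12 probe sets (vertical axis, spaced by log2) in each of 4 old (red) and 4 young (blue) arrays, with the group mean as a black bar and a dotted line between the phagocyte oxidase genes and the other oxidases. Old and young arrays are apart for 11 probe sets and overlap for Noxo1, at 118 to 130 in old and 122 to 137 in young arrays.

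The promoter windows of Cybb, Cyba and Nox4 are shown because these 3 genes encode the membrane subunits that rose: the phagocyte pair and the oxidase that shares p22phox with it. Each window runs from 250 bases before to 50 bases after a transcription start, as given by RefSeq for build GRCm38.p6, and 7 of the 9 listed genes had one. Capitals mark matches, on either strand, to the core of the myeloid factor PU.1 (GAGGAA), of AP-1 (TGANTCA) or of interferon regulatory factors (AANNGAAA), where matches may overlap.
Cybb, chrX:9469275-9469574, minus strand: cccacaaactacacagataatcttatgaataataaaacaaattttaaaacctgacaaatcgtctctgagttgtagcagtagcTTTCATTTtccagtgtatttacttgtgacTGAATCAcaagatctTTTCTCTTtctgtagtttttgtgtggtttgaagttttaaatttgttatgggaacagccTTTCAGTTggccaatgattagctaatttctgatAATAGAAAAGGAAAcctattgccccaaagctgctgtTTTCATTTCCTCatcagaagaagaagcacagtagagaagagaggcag
Cyba, chr8:122432891-122433190, minus strand: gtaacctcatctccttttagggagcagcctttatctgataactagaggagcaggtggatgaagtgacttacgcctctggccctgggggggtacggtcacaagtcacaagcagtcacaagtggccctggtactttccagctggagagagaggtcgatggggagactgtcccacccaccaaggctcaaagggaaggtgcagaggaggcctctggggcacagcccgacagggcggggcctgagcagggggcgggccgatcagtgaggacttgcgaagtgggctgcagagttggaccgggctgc
Nox4, chr7:87246399-87246698, plus strand: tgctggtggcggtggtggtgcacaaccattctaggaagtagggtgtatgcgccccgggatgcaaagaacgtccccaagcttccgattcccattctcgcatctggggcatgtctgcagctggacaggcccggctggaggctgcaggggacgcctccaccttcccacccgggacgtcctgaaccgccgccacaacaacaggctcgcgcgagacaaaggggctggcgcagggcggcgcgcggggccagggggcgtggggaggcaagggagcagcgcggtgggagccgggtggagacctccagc
The Cybb window held 1 PU.1 match, 1 AP-1 match and 6 matches to the interferon regulatory factor core, some of them overlapping. The windows of Cyba and Nox4 held no match to any of the 3 motifs. Among the windows not printed, Ncf1 had 1 interferon regulatory factor match and Nox1 had 1 PU.1 match, and Noxa1 and Noxo1 had none. Over all 32851 windows of this length, 28.3% held the PU.1 core, 7.8% the AP-1 core and 23.9% the interferon regulatory factor core. The window of Cybb was 35.3% G and C, that of Cyba 60.7% and that of Nox4 68.3%. A match is a description of the letters and was not tested as a binding site.

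Cybb, the catalytic subunit, was measured by 3 probe sets, all of which rose. By 1436778_at, the brightest of them, old replicates 1 to 4 were at 2475, 2941, 3175 and 2659.9, and young replicates 1 to 4 at 894, 1147, 974 and 962. The lowest old array was thus 2.16 times the highest young array. The means were 2813 ± 308 in old and 994 ± 108 in young arrays (SD, n = 4 each), a 2.83-fold rise (log2 difference 1.50, standard error 0.10, adjusted p = 3.69e-05 from limma). By 1422978_at the old arrays ran from 1076 to 1359.7 and the young arrays from 358 to 471, a 2.96-fold rise. By 1436779_at they ran from 1212 to 1779 in old and from 435 to 518 in young arrays, a 3.16-fold rise. The 3 probe sets gave nearly the same change, with log2 differences of 1.50 to 1.66, and old replicate 3 and young replicate 2 were the highest of their age in each of them. Of all genes, 99.6% had a lower log2 difference than Cybb.

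Cyba, which encodes the partner p22phox, had 1 probe set and rose too. Its intensity was 3278, 3794, 4051 and 3656 in old replicates 1 to 4, against 1461, 1761, 1614 and 1487 in young replicates 1 to 4. The groups were far apart, the lowest old array being 1.86 times the highest young array. The means were 3695 ± 322 in old and 1580.5 ± 138 in young arrays (SD, n = 4 each), a 2.34-fold rise (log2 difference 1.22, standard error 0.08, adjusted p = 4.29e-05 from limma). As by the brightest probe set of Cybb, old replicate 3 and young replicate 2 were the highest of their age, and old replicate 1 and young replicate 1 the lowest. The rise of Cybb exceeded that of Cyba by 0.27 on the log2 scale (standard error 0.04, two-sided exact permutation test over arrays, p = 0.0286).

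That test asks whether the log2 difference between 2 probe sets on the same array changed with age. It was run on 28 pairs after their values had been seen: the 21 pairs of the 7 genes and 7 pairs of probe sets of the same gene. With 4 arrays against 4 there are 70 splits and the smallest p they can give is 0.0286. It was reached by 17 pairs, 14 between genes and 3 within Ncf1, and these p-values are not adjusted. Probe sets differ in how strongly they respond to the same change in RNA, so unequal change here is unequal change in intensity.

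Ncf1, the organizer p47phox, rose by all 3 of its probe sets, but by different amounts. By the brightest, 1456772_at, old replicates 1 to 4 were at 426, 506, 524 and 479 and young replicates 1 to 4 at 195, 218, 183 and 179. Every old array was at least 1.95 times every young array. The rise was 2.50-fold (log2 difference 1.32, standard error 0.09, adjusted p = 3.69e-05 from limma). By 1451767_at the means were 218 ± 19.7 in old and 109 ± 9.22 in young arrays (SD, n = 4 each), a 2.00-fold rise (adjusted p = 0.000112 from limma). By 1425609_at they were 117 ± 4.58 in old and 92.8 ± 2.19 in young arrays (SD, n = 4 each), a 1.26-fold rise (adjusted p = 0.00299 from limma). The groups did not overlap in either of them, and both are annotated to the same transcript record. The rise by 1456772_at exceeded that by 1451767_at by 0.32 on the log2 scale (standard error 0.05) and that by 1425609_at by 0.98 (standard error 0.09), each with p = 0.0286 in the two-sided exact permutation test. All arrays by 1425609_at, and the young arrays by 1451767_at, lay below the array medians, where a part of the signal is background. The part of background in these differences was not tested. With the mean over its 3 probe sets, Ncf1 had a log2 difference of 0.89 (adjusted p = 3.69e-05 from limma over genes). The exact permutation test gave p = 0.0571 to 0.429 for the 3 pairs of Cybb probe sets and p = 0.143 for the pair of Nox4.

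Ncf4, which encodes p40phox, a subunit that binds a phagosome lipid, rose with more spread than the others. Old replicates 1 to 4 were at 376, 553, 437 and 397, and young replicates 1 to 4 at 147, 211, 179 and 171. Old replicate 2 stood highest, and the groups did not overlap. The means were 440.5 ± 78.9 in old and 177 ± 26.4 in young arrays (SD, n = 4 each), a 2.48-fold rise (log2 difference 1.31, standard error 0.14, adjusted p = 0.000397 from limma). The neutrophil gene S100a8, a calprotectin chain, was at 346, 7828, 867 and 888 in old replicates 1 to 4 and at 109.8 to 220.1 in young arrays, so it was highest in the same array and higher in the other old arrays too. Without old replicate 2 the log2 difference of Ncf4 was 1.20 (adjusted p = 0.000805 from limma). The part of neutrophils in the rise of Ncf4 was not tested. By the brightest probe set of Ncf1, the rise of Ncf4 differed from that of Ncf1 by 0.01 (standard error 0.13, exact permutation test, p = 0.943).

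Hvcn1, the voltage-gated proton channel, rose least of the phagocyte genes read by their brightest probe set. Its intensity was 1277, 1359, 1456 and 1429 in old replicates 1 to 4, against 648, 775, 697 and 685 in young replicates 1 to 4. The replicates lay close together and the groups far apart. The means were 1380.2 ± 80.4 in old and 701 ± 53.4 in young arrays (SD, n = 4 each), a 1.97-fold rise (log2 difference 0.98, standard error 0.07, adjusted p = 5.71e-05 from limma). The rises of Cybb, Cyba, Ncf1 and Ncf4 exceeded it by 0.52, 0.25, 0.34 and 0.33 on the log2 scale, with standard errors of 0.06, 0.04, 0.06 and 0.14 and p = 0.0286 for each in the exact permutation test.

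Nox4 had the largest log2 difference of the 7 genes and ranked 37 of 18193 genes in that respect. By 1451827_a_at, old replicates 1 to 4 were at 310.4, 295, 344 and 305 and young replicates 1 to 4 at 84.1, 88.7, 87.2 and 111. The lowest old array was 2.64 times the highest young array. The means were 313 ± 21.5 in old and 92.8 ± 12.5 in young arrays (SD, n = 4 each), a 3.39-fold rise (log2 difference 1.76, standard error 0.09, adjusted p = 2.85e-05 from limma). By 1419161_a_at the means were 178 ± 10.2 in old and 55.8 ± 8.68 in young arrays (SD, n = 4 each), a 3.21-fold rise (adjusted p = 3.42e-05 from limma). The young intensities lay below the array medians, where a part of the signal is background, so the fold and its rank depend on how low values are treated. With 16 added to every value the log2 difference was 1.60 by 1451827_a_at and 1.44 by 1419161_a_at. Young replicate 4 was the highest young array by both probe sets, whereas young replicate 2 was the highest for Cybb, Cyba, Ncf4 and Hvcn1. The rise of Nox4 exceeded that of Cybb by 0.26 (standard error 0.14, exact permutation test, p = 0.143) and that of Cyba, its own membrane partner, by 0.54 (standard error 0.14, exact permutation test, p = 0.0286).

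Noxo1, the organizer of Nox1, was the only measured member that did not pass the test. Old replicates 1 to 4 were at 128, 129.9, 123 and 118, and young replicates 1 to 4 at 137, 128, 127 and 122. The groups overlapped. The log2 difference was -0.04 with a 95% interval of -0.17 to 0.09 (adjusted p = 0.656 from limma). Its intensities lay around the array medians, and detection calls were not used here, so it is not known from these values whether the transcript was present, and the interval is one of intensity, not of transcript.

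**Figure D2:**
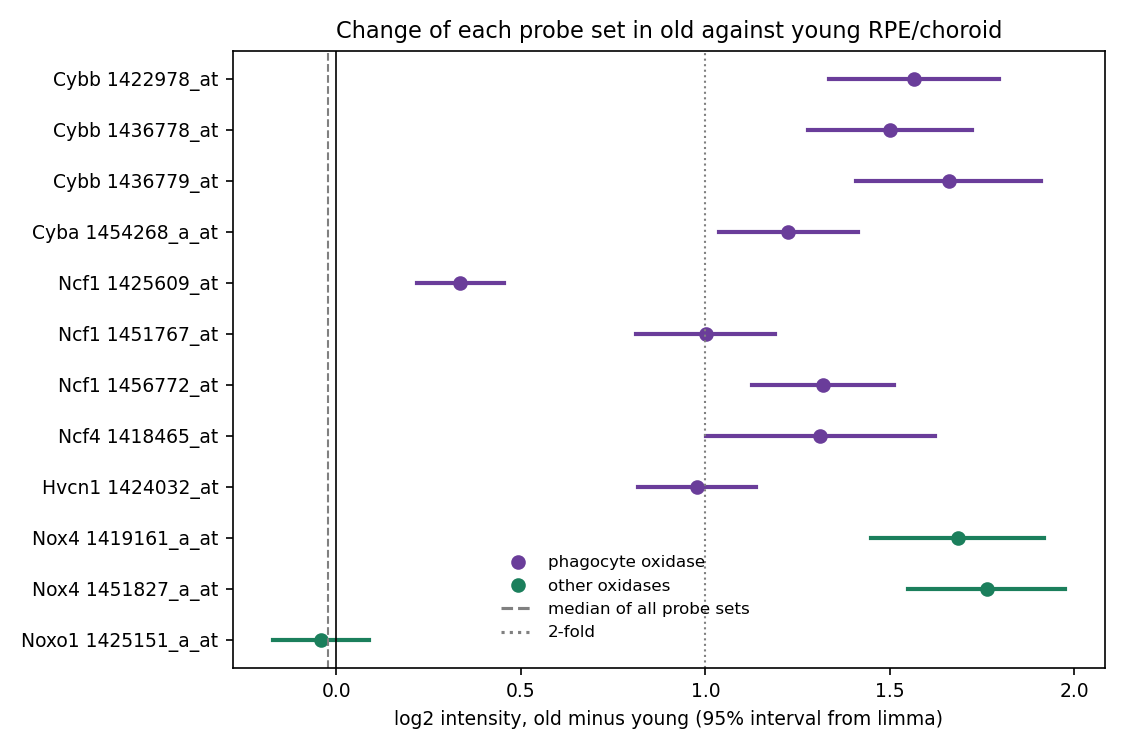
Log2 difference, old minus young (horizontal axis), of each of 12 probe sets with its 95% interval from limma, for the phagocyte oxidase genes (purple) and the other oxidases (green). The probe sets of Cybb and Nox4 lie between 1.50 and 1.76, the 3 of Ncf1 spread over 0.34 to 1.32, and Noxo1 lies at -0.04, near the median of all probe sets.

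Cells of the blood carry the phagocyte oxidase, so their markers were read on the same arrays. Beside the counts that follow, 11.8% of all genes rose and 9.56% fell. Of 13 macrophage markers, 9 rose and 0 fell, with a median log2 difference of 0.90 and a summed intensity of 42481 to 46393 in old and 26142 to 29638 in young arrays. The lysosomal glycoprotein gene Cd68 rose by 1.47 (adjusted p = 3.69e-05 from limma) and Adgre1, the surface receptor F4/80, by 0.90 (adjusted p = 3.34e-05). Csf1r, the receptor of the macrophage growth factor, had a log2 difference of -0.04 (adjusted p = 0.691). Cd163, a scavenger receptor, was dim in all arrays but old replicate 2, where it was at 185. It was at 19.3 to 25.9 in the other old arrays and at 28.1 to 36.3 in young arrays. Of 9 neutrophil markers, S100a8 and the antimicrobial peptide gene Camp rose and the chemokine receptor gene Cxcr2 fell, with a median log2 difference of 0.67. The granule enzymes Mpo and Elane had log2 differences of 0.12 and 0.06 (adjusted p = 0.462 and 0.542 from limma). S100a9, Ltf and Ngp had larger ones, of 2.23, 0.96 and 0.67, and did not pass (adjusted p = 0.102, 0.201 and 0.489). Ngp, whose log2 difference is the median of the list, was at 1496 in old replicate 2. It was at 169 to 185 in the other old arrays and at 173 to 205 in young arrays. Of 6 B cell markers, Cd22 rose and Pax5 fell, and the summed intensity was 1029 to 1089 in old and 976 to 1029 in young arrays. Of 7 T cell markers, the receptor chain genes Cd3d and Cd3g and the coreceptor gene Cd8b1 rose, by 1.07 to 1.12. Cd247 fell by 0.43 by its brightest probe set (adjusted p = 0.00136 from limma) but rose by 0.41 by 1426396_at (adjusted p = 0.00504). The T cell sums were 1464 to 1631 in old and 1294 to 1518 in young arrays, with Cd3e as the largest term (log2 difference -0.13). Of 5 mast cell markers, the protease genes Cpa3, Cma1, Mcpt4 and Tpsb2 rose and the receptor gene Kit fell, with sums of 704 to 1079 in old and 647 to 686 in young arrays. Of 3 monocyte markers, Fn1, a fibronectin gene that fibroblasts express as well, rose by 1.92. Plac8 had a log2 difference of 0.50 (adjusted p = 0.0598 from limma) and did not pass. The chemokine receptor gene Ccr2 had one of -0.07 by its brightest probe set (adjusted p = 0.414) and fell by 0.24 by 1421186_at (adjusted p = 0.0249). None of the named markers was at 0 in any array. The part of these cells in the rise of the oxidase genes was not tested.

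Nox4 is a gene of resident cells in other tissues, and the markers of such cells were read in the same way. The shares of all genes are again 11.8% that rose and 9.56% that fell. A count of 1 that rose in a list of 6 or 7 is near that share. Of 7 endothelial markers, the junction gene Cdh5, the receptor genes Kdr, Tek and Tie1, and Emcn fell and 0 rose, with a summed intensity of 5945 to 7558 in old and 7802 to 9860 in young arrays. Of 7 smooth muscle and pericyte markers, Pdgfrb, a growth factor receptor of pericytes, rose by 0.32 (adjusted p = 0.0114 from limma) and 0 fell, with sums of 14289 to 17042 in old and 15259 to 17895 in young arrays. Of 6 fibroblast markers, Pdgfra, the related receptor of fibroblasts, rose by 0.40 (adjusted p = 0.00842 from limma) and 0 fell, with sums of 25119 to 29659 in old and 23380 to 25980 in young arrays. Of 7 RPE markers, the retinol acyltransferase gene Lrat and the pigment enzyme gene Tyr fell, by 0.25 and 0.41, and 0 rose. The summed RPE intensity was 56727 to 60294 in old and 62784 to 63821 in young arrays. Of 5 Mueller glia markers, the glutamate transporter gene Slc1a3 and the filament gene Gfap fell, by 1.41 and 0.98, and the filament gene Vim rose by 0.19. The median was -0.98. The sums were 15748 to 16624 in old and 15417 to 16636 in young arrays. They follow the bright genes Glul and Vim, so the falls of the dimmer genes hardly show in them. By their brightest probe sets, Pdgfra and Pdgfrb had every old array above every young array, as had Nox4 and 12.3% of all probe sets. The same held for Vim. For the smooth muscle gene Acta2 every old array lay below every young array (log2 difference -0.31, adjusted p = 0.0804 from limma). By another probe set of Pdgfrb the groups overlapped (log2 difference 0.15, adjusted p = 0.0933 from limma). The fibroblast marker Col1a2 had a log2 difference of 0.23 by its brightest probe set (adjusted p = 0.169 from limma). It rose by 0.49 by 1423110_at (adjusted p = 0.0219) and by 0.66 by the dim 1446326_at (adjusted p = 0.0224). The other probe sets of Col1a1 and Dcn did not pass. The median log2 difference was -0.17 in the smooth muscle and pericyte list and 0.14 in the fibroblast list. The part of these cells in the change of Nox4 was not tested.

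**Figure D3:**
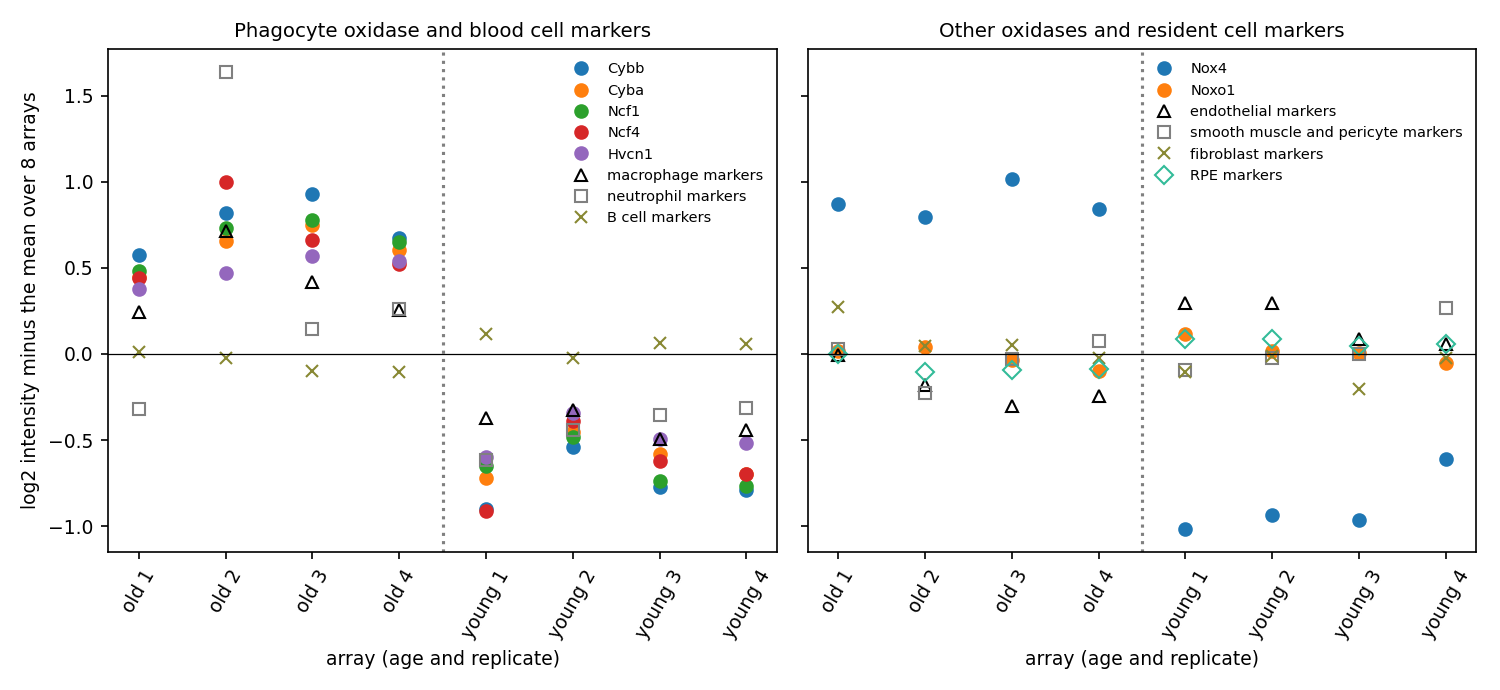
Log2 intensity of each gene, centred on its mean over 8 arrays (vertical axis), for the phagocyte oxidase genes (left) and Nox4 and Noxo1 (right), with the mean of marker lists, by array from old replicate 1 to young replicate 4. Neutrophil markers stand at 1.64 in old replicate 2, whereas Cybb is at 0.57 to 0.93 in old and -0.90 to -0.54 in young arrays, and Nox4 at 0.79 to 1.02 in old and -1.02 to -0.61 in young arrays.

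The genes whose levels over the 8 arrays were most like those of Cybb, among 12360 other genes with a mean log2 level of at least 7, were Laptm5, a lysosomal protein of blood cells (Pearson r = 0.9989), Cyba (0.9986), Otulinl (0.9983), Anxa4 (0.9981) and Cd68 (0.9980). After the mean of each age was taken out, their r with Cybb was 0.93 to 0.97. The genes were chosen by r over the same arrays, so this is no separate check. Those most like Nox4 were Serping1, the C1 inhibitor of complement (r = 0.9961), Zc3hav1, an antiviral RNA-binding protein (0.9949), Atad2 (0.9945), Cd109 (0.9938) and Setd5 (0.9937), with 0.63 to 0.79 after the age means were taken out. The points are 8 arrays in 2 ages that share the age difference, so these values describe likeness and carry no test. The partner of Cybb in the membrane was among its 5 nearest genes. None of the phagocyte genes was among the 5 nearest to Nox4, which does not measure how unlike Nox4 they are.

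Around the oxidases, 41 of 49 listed genes could be read, of which 16 rose and 1 fell, with a median log2 difference of 0.13. Of all genes, 11.8% rose and 9.56% fell, as above. When any probe set of a gene was allowed to count, 20 of the 41 genes rose and 3 fell, where 15.2% of all genes rose and 14.5% fell by the same rule. Among 8 core partners, Rac2, the Rac GTPase of blood cells, rose to 443 ± 57.8 in old arrays, against 194 ± 16.5 in young arrays (SD, n = 4 each), a log2 difference of 1.19 (adjusted p = 0.00013 from limma), and Cybc1, which encodes a chaperone of the membrane pair, rose by 0.49 (adjusted p = 0.00114). Rac1, the GTPase of most cells, had a log2 difference of -0.04 (adjusted p = 0.573) by its brightest probe set, and another probe set of it rose by 0.27 (adjusted p = 0.0184). Duoxa2, a maturation factor of the dual oxidases, fell by 0.25 (adjusted p = 0.0464), a call that was lost with quantile normalization, with median centring and without any 1 of 6 of the 8 arrays. Its intensities, 48.2 to 57.6 in old and 57.1 to 65.6 in young arrays, lay below the array medians. Whether the transcript was present is not known from them.

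Of 15 kinases and Rac regulators, 8 rose and 0 fell. Pik3r5, a regulatory subunit of the phosphoinositide 3-kinase of leukocytes, rose by 1.37 (adjusted p = 0.000203 from limma), and Syk, the kinase behind immune receptors, by 1.22 (adjusted p = 8.59e-05). Arhgdib, which holds Rac GTPases inactive in blood cells, rose by 0.69 (adjusted p = 0.000505), and Prkcd, a protein kinase C isoform, by 0.50 (adjusted p = 0.000713). For Vav1 and Dock2, exchange factors for Rac in blood cells, the brightest probe set differed from another one: Vav1 had a log2 difference of -0.14 by 1440300_at and 1.19 by 1422932_a_at (adjusted p = 3.34e-05), and Dock2 one of -0.21 by 1438334_at and 2.12 by 1422808_s_at (adjusted p = 2.51e-06). These probe sets were chosen after their values were seen.

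Of 5 partners of Nox1 and Nox4, Sh3pxd2b, the organizer Tks4, rose by 0.43 (adjusted p = 0.00275 from limma) and P4hb, protein disulfide isomerase, by 0.27 (adjusted p = 0.00792). Poldip2, which binds the complex of Nox4 and p22phox, had a log2 difference of 0.00 with a standard error of 0.07. Of 6 enzymes that supply NADPH or feed its pathway, 3 rose, Pgd by 0.58 (adjusted p = 0.000797), Idh1 by 0.24 (adjusted p = 0.0413) and Pgls by 0.23 (adjusted p = 0.0286), where Pgd and Idh1 make NADPH themselves. Of 7 genes that remove or carry superoxide and peroxide, Gpx1, glutathione peroxidase, rose by 0.18 (adjusted p = 0.0452) and 0 fell. Sod1 and Sod2, the superoxide dismutases of cytosol and mitochondria, had log2 differences of -0.06 and 0.08 (adjusted p = 0.488 and 0.384). By the brightest probe set of each gene, the changes in these 2 lists were at most 0.58 in size. Those of the 6 oxidase genes were at least 0.98, a difference that was not tested. By 1425609_at, a dimmer probe set, the change of Ncf1 was 0.34.

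**Figure D4:**
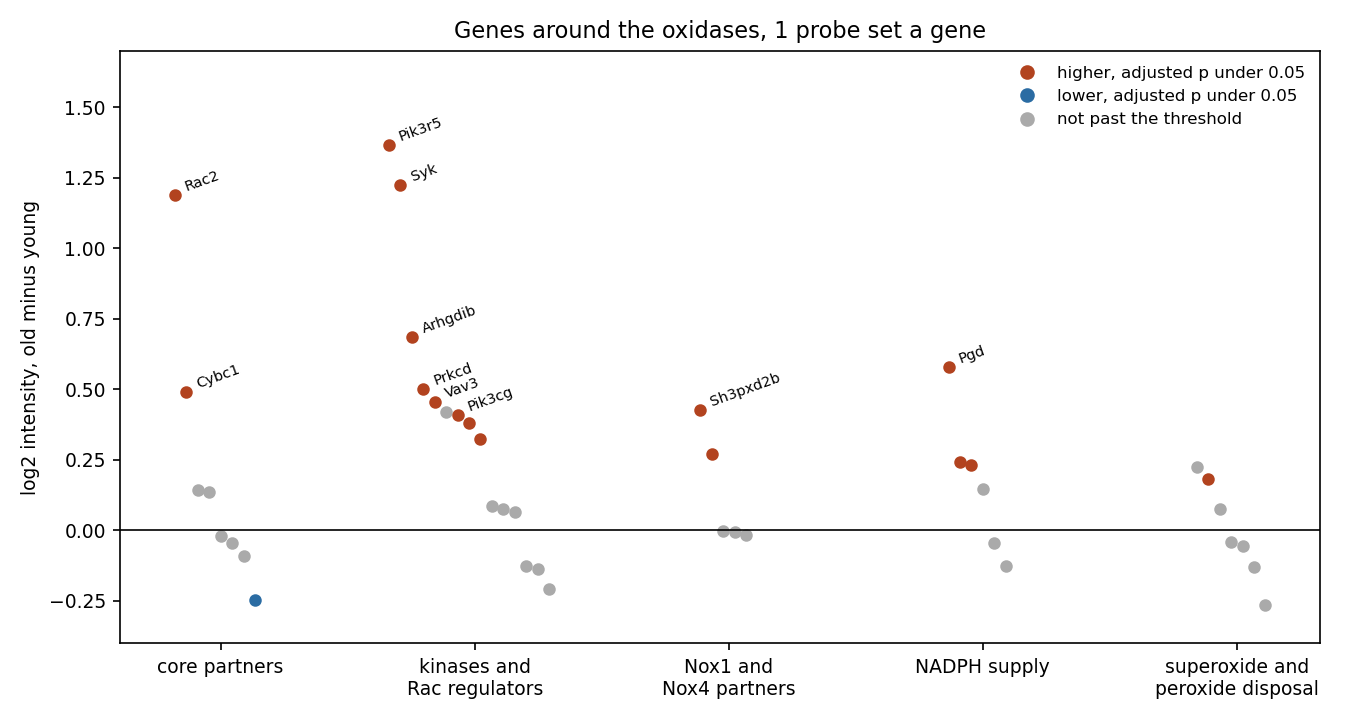
Log2 difference, old minus young (vertical axis), of 41 genes in 5 lists, by the brightest probe set of each, coloured by whether the gene rose (red), fell (blue) or did not pass an adjusted p of 0.05 (grey). Pik3r5, Syk and Rac2 lie at 1.19 to 1.37 and all other genes at or below 0.69.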

How the data were processed

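RPE/choroid RNA of 4 old and 4 young samples was hybridized to 8 Affymetrix arrays. The deposited values are linear intensities, normalized by the authors before deposit. Their methods name RMA, the invariant set method of dChip and BRB-ArrayTools, and which of these made the table is not known. A filter on Absent calls was not repeated. A floor of 1 was applied, which raised 8 to 14 values per array, before log2. limma 3.58.1 (R 4.3.3, lmFit and eBayes) was fitted to 45037 probe sets after 64 controls were left out, old against young with no covariate and Benjamini-Hochberg adjustment. Gene symbols came from GEO's platform annotation, updated by gene ID: 34945 probe sets named 1 gene, 932 several and 9160 none. The brightest probe set (highest mean of log2 values) stood for its gene. The script was tested on simulated data.

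The members, lists and tests were chosen with earlier results of these data known. Named are all members, up to 4 genes of each pathway list with the largest change past the threshold, the 5 genes most like Cybb and Nox4, and markers that lead their list or stand in a count of 5 or fewer. Genes and probe sets named beside these, such as Rac1, Poldip2, Sod1, Sod2, Vav1, Dock2, Adgre1, Csf1r, Cd163, Mpo and Elane, were chosen after their values were seen. Sequences are from RefSeq (GRCm38.p6). Neither labels nor table give a hybridization batch. Alternatives covered offset, filter, normalization, variance model, array weights, replicate block, probe set choice, thresholds and each array left out. Some genes of the lists are not reported here.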

Additional observations from a re-analysis of the deposited data

How the results depend on the processing

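All 6 oxidase genes that rose were called higher, and 0 lower, in each of 16 alternatives. The fit with the replicate number as a block is among them (6 genes). The mean over the probe sets of a gene gave the same counts. The filter on a mean log2 value of at least 6 left 33075 probe sets, and the other alternatives kept all 45037. With a fold over 2 the count was 5, at an adjusted p under 0.01 or an unadjusted p under 0.05. The 12 probe sets kept direction and call in all 192 refits. Among pathway genes, the count of higher genes was 16, 17 with trend and robust estimation, 13 with the replicate block, 12 with quantile normalization, 12 to 15 with 1 array left out, and 10 when old replicates 2 and 4 were both dropped. That last choice was made after seeing the data, and fewer arrays enter it. The count of lower genes was 1 (Duoxa2). It was 2 with values plus 16 in place of the floor, 2 with trend and robust estimation, 2 with array weights, 0 with quantile normalization, 0 with median centring, 0 without old replicates 2 and 4, and 0 to 2 with 1 array left out: 0 without old replicate 1, 2 or 3 or young replicate 1, 3 or 4, and 2 without young replicate 2. The cause was not tested. Over all probe sets, 4154 were higher and 3939 lower, and the alternatives gave 2004 to 5198 higher and 1614 to 5708 lower. The labels do not say that replicate numbers pair old with young samples, and same-numbered arrays had residual correlations of 0.0971, 0.019, 0.0218 and 0.0427. With the number as a block, 3257 probe sets were higher and 2930 lower. The number of arrays, 4 a group, limits the precision of every value.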
